A study of Mus musculus with 20 samples.

Results

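Protein arginine methyltransferases and the partners of PRMT5 were followed in kidney cortex RNA as a group of 10 genes chosen by name: the type I enzymes *Prmt1*, *Prmt2*, *Prmt3*, *Carm1* and *Prmt6*, the type II enzymes *Prmt5* and *Prmt9*, the type III enzyme *Prmt7*, and *Wdr77* and *Clns1a*, whose products bind PRMT5. The count tables held 43430 genes, and 9 of the 10 members were found by their gene ID. The ID of *Prmt1* in the annotation used here had no match among those of the tables, so *Prmt1* was not analysed here. All 9 others passed the filter on low counts, and none of them passed the test in any of the 7 comparisons described below.

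Bulk RNA of the kidney was sequenced in male C3H/HeJ mice, either WT or homozygous for Sweet Pee (SP), a missense mutation of *Slc5a2*, the gene of the glucose carrier SGLT2. All mice, controls included, were on a high-fat diet (HFD) from 10 weeks of age, for 8 weeks and then during 8 more weeks of treatment. Treatment was placebo (DMSO) or MAT2Ai, a halogenated styryl N-methylaniline that inhibits the enzyme MAT2A, at 10 mg/kg into the peritoneum 3 times per week. This gave 4 groups of 5 libraries, WT placebo, WT MAT2Ai, SP placebo and SP MAT2Ai, with no group on normal chow among them. The SP mutation is carried in every cell of the animal, and the inhibitor was given to the whole animal. Because the labels number the replicates without naming animals, p values here measure the spread between libraries.

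Arginine methyltransferases move methyl groups from S-adenosylmethionine (SAM), the product of MAT2A, to the side chain of arginine in histones and RNA-binding proteins. Type I enzymes place both methyl groups on the same nitrogen, type II enzymes place them on different nitrogens, and PRMT7 places a single group. PRMT5 works in a complex with the WD-repeat protein WDR77, and pICln, the product of *Clns1a*, brings Sm proteins of the splicing machinery to that complex. PRMT5 is known to be sensitive to a low supply of SAM, particularly in cells that have lost *Mtap* and build up methylthioadenosine (MTA). The comparisons asked whether the transcripts of these enzymes differed with the inhibitor or with loss of SGLT2. Enzyme activity and methylarginine itself were not measured.

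The 250 bases before the RefSeq start of *Prmt5* and of the genes of its partners are shown because these 3 genes encode proteins of the same complex. Sequences are from RefSeq on GRCm38.p6, which held 9 of the 10 members and lacked *Carm1*, and they run 5′ to 3′ on the strand of the gene. Capitals mark CCAAT, the letters known to be bound by NF-Y, on either strand (CCAAT or ATTGG). The windows are chr14:54517471-54517720 (minus strand) for *Prmt5*, chr3:105959248-105959497 (plus strand) for *Wdr77* and chr7:97696407-97696656 (plus strand) for *Clns1a*.
Prmt5: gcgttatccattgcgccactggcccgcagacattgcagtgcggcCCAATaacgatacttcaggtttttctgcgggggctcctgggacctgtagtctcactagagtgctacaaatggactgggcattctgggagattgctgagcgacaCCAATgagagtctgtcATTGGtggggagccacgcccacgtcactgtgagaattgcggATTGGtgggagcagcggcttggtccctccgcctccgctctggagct
Wdr77: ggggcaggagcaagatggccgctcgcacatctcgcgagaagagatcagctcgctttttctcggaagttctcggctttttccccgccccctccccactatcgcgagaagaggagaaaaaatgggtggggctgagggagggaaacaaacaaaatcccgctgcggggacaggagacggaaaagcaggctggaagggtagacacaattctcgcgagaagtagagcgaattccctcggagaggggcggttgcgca
Clns1a: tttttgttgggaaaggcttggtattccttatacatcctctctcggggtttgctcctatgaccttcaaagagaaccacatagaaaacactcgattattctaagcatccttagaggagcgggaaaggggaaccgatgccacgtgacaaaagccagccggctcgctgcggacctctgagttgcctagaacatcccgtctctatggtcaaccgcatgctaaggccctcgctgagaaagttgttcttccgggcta

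The *Prmt5* window held 4 copies of CCAAT, at 206, 103, 87 and 46 bases before the start. Of the 32851 promoter windows of this length, 33.8% held at least 1 copy and 0.840% held at least 4. The windows of *Wdr77* and *Clns1a* held none. GGGCGG, searched on both strands like the other motifs, was present at 169 and 13 bases before the start of *Wdr77* and is found in 32.7% of windows. CACGTG, which reads the same on both strands, was present at 114 bases before the start of *Clns1a* and is found in 6.02% of windows. None of the 3 held TATAAA, which 12.4% of windows hold. The RefSeq starts of the 3 genes lie inside the gene positions given below, which come from another annotation. By those positions the *Prmt5* copy at 46 bases and the *Wdr77* match at 13 bases are within the gene. No 2 matches overlapped in these windows, and a match of letters is a description of the sequence and not a measured binding site.

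Each library held between 53296824 and 79339949 counts in genes. As a check of genotype, *Slc5a2* was at 229 to 518 CPM (gene counts scaled by library size) in the 10 WT libraries and at 40.2 to 85.9 CPM in 8 SP libraries, while the libraries labelled SP placebo replicates 1 and 2 stood at 241 and 282 CPM. For the members that the results turn on, values that rest on SP placebo are also given without both. WT MAT2Ai replicates 2, 3 and 4 stood apart on the first principal component (20.5% of the variance), at -89.7, -21.8 and -19.4 against -6.00 to 22.8 in the other 17. All 7 proximal tubule markers were detected, and their summed level was 6696 to 10507 CPM in WT MAT2Ai and 9705 to 11645 CPM in the other groups. The 6 markers of injured tubule summed to 2276 CPM in WT MAT2Ai replicate 2 and to 125 to 223 CPM in the other 19 libraries.

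*Prmt5* was the most abundant of the 9 measured members per length of transcript. It had the lowest unadjusted p of them with MAT2Ai in SP mice and averaged over genotype, but not in WT mice. It lies on mm10 chromosome 14, 54507187 to 54517525, minus strand (ENSMUSG00000023110). In WT placebo the 5 libraries were at 36.1, 33.7, 36.9, 32.7 and 33.7 CPM, and in WT MAT2Ai at 38.1, 42.9, 33.2, 34.1 and 36.6 CPM. In SP placebo they were at 32.2, 34.8, 36.2, 36.7 and 35.0 CPM, and in SP MAT2Ai at 40.03, 40.06, 37.1, 36.9 and 39.0 CPM. The lowest SP MAT2Ai library thus lay just above the highest SP placebo library, while the WT groups overlapped. In that SP comparison 1.58% of all tested genes had groups that did not overlap, 1.06% being higher with MAT2Ai. The groups of all 9 members overlapped in WT MAT2Ai against WT placebo, SP placebo against WT placebo and SP MAT2Ai against WT MAT2Ai, where 2.19%, 1.19% and 3.4% of genes did not overlap.

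The log2 fold change of *Prmt5* was 0.14 ± 0.06 (SE) in SP MAT2Ai against SP placebo, a difference of 10.3% with a 95% interval from 0.634% to 20.9%. Its unadjusted p was 0.0374 and its adjusted p 0.833, from the edgeR quasi-likelihood test with Benjamini-Hochberg adjustment over 16152 genes, so it did not pass the threshold. Without the libraries labelled SP placebo 1 and 2 the log2 fold change was 0.11. In WT MAT2Ai against WT placebo it was 0.09 ± 0.06 (adjusted p = 0.470), and 0.03 without WT MAT2Ai replicate 2 but 0.10 without replicates 2, 3 and 4. Averaged over both genotypes it was 0.12 ± 0.04 (unadjusted p = 0.0159, adjusted p = 0.257), or 8.54% with a 95% interval from 1.72% to 15.8%. The averaged value was 0.10 (adjusted p = 0.445) without SP placebo 1 and 2, and 0.085 (adjusted p = 0.387) without WT MAT2Ai replicate 2. It was 0.12 (adjusted p = 0.209) without WT MAT2Ai 2, 3 and 4. In the same averaged contrast 14.7% of all tested genes had an unadjusted p under 0.05. The SP effect averaged over treatment was 0.04 ± 0.04 for *Prmt5* (adjusted p = 0.672), or 0.058 without SP placebo 1 and 2.

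Mean summed levels of endothelial, macrophage, lymphocyte and erythroid markers were lower in SP MAT2Ai than in SP placebo. So were those of proximal tubule (10840 to 10686 CPM from SP placebo to SP MAT2Ai) and of thick ascending limb and distal convoluted tubule (2152 to 2071 CPM). Collecting duct went from 377 to 350 CPM and podocytes from 99.2 to 88.8 CPM. Mean sums were higher with MAT2Ai for injured tubule (143 to 152 CPM), proliferation (3.46 to 4.22 CPM) and adipocytes (0.0471 to 0.113 CPM). The 5 endothelial markers summed to 92.8 to 157 CPM in SP placebo and to 72.8 to 107 CPM in SP MAT2Ai, and the 6 macrophage markers to 42.3 to 78.3 CPM and to 25.6 to 53.3 CPM. The ranges of both sums overlapped. The 6 lymphocyte markers summed to 4.21 to 6.63 CPM in SP placebo and to 2.10 to 3.76 CPM in SP MAT2Ai, without overlap, and the 5 of them that were tested all had negative values (median -0.75 on the log2 scale). All 4 erythroid markers were negative too (median -0.69), with sums of 306 to 989 CPM and 224 to 644 CPM. None of these markers passed the test, and all were detected. Their part in the *Prmt5* difference was not tested, and in bulk RNA fewer cells of a type and less RNA per cell cannot be told apart.

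**Figure D1:**
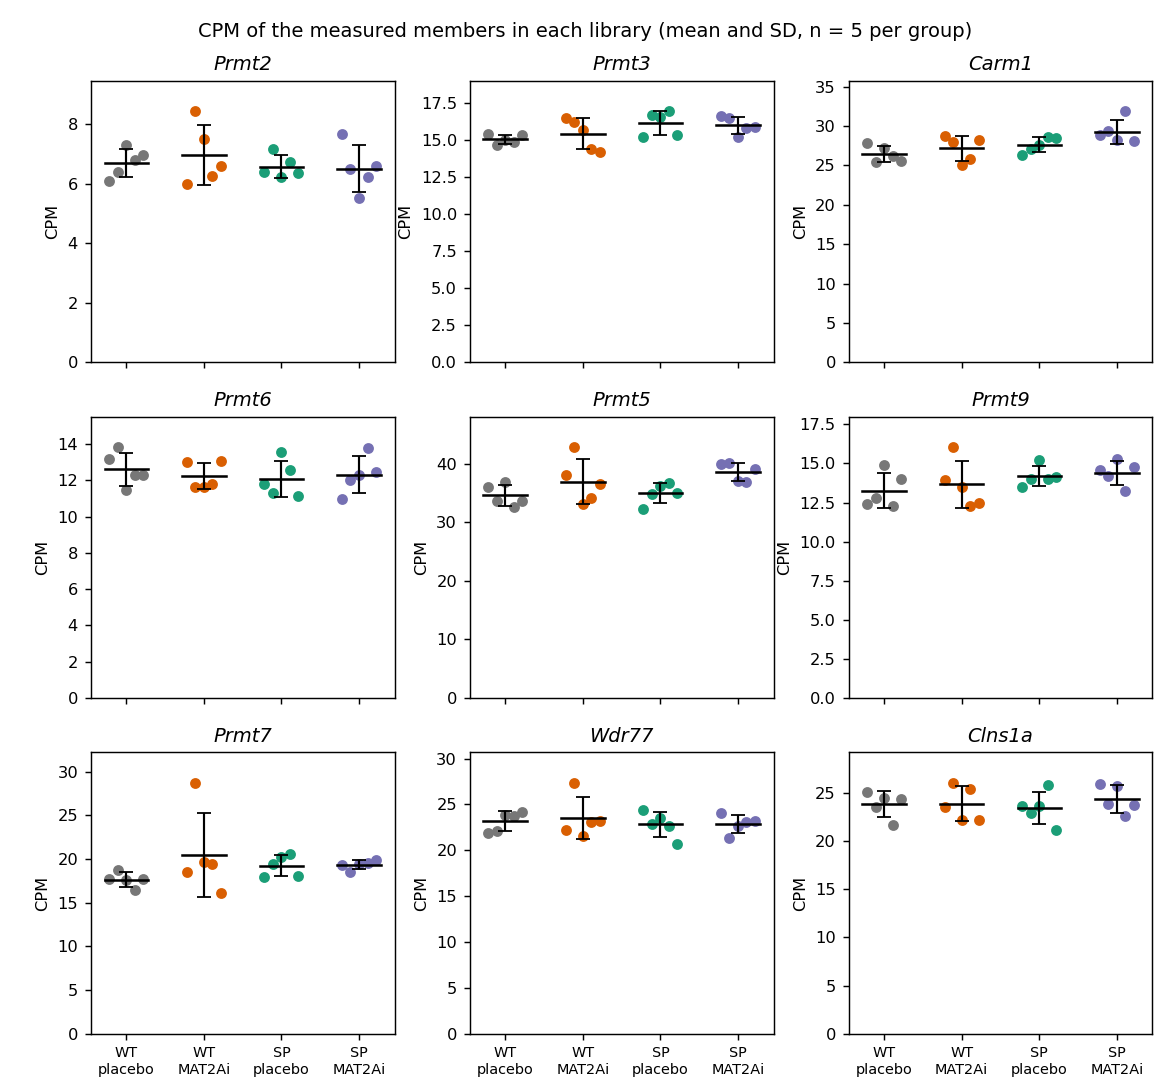
CPM of the 9 measured members (y axis, from 0, own scale per panel) in each library of the 4 groups, with bars for mean and SD (n = 5). *Prmt5* in SP MAT2Ai lies between 36.9 and 40.1 CPM, above the SP placebo libraries at 32.2 to 36.7 CPM, and the 28.7 CPM of *Prmt7* in WT MAT2Ai replicate 2 stands far above the rest of its panel.

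*Wdr77*, whose WD-repeat product holds PRMT5 in its active complex, lies on mm10 chromosome 3, 105959369 to 105970037, plus strand (ENSMUSG00000000561). It was at 21.9, 22.1, 23.9, 23.7 and 24.2 CPM in WT placebo and at 22.2, 27.4, 21.5, 23.1 and 23.2 CPM in WT MAT2Ai. In SP placebo it was at 24.4, 22.8, 23.5, 22.6 and 20.7 CPM, and in SP MAT2Ai at 24.0, 21.3, 22.6, 23.0 and 23.2 CPM. All 4 groups overlapped, and only WT MAT2Ai replicate 2 was above 24.4 CPM. Its log2 fold change with MAT2Ai averaged over genotype was 0.01 ± 0.04 (adjusted p = 0.933), and the largest in any comparison of 2 groups was -0.04 ± 0.06, in SP MAT2Ai against WT MAT2Ai. Without WT MAT2Ai replicate 2 these values were -0.024 and 0.022. *Wdr77* shares 337 exon bases with *Atp5f1* on the other strand, a gene with a mean count of 37655 per library, and the strand setting of the counting is not given in the sources used here.

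*Clns1a*, the gene of pICln, lies on mm10 chromosome 7, 97696634 to 97720796, plus strand (ENSMUSG00000025439). Its group means were 23.9 ± 1.35, 23.9 ± 1.82, 23.4 ± 1.67 and 24.4 ± 1.41 CPM (SD, n = 5 each) in WT placebo, WT MAT2Ai, SP placebo and SP MAT2Ai. Values ran from 21.2 to 26.1 CPM over all libraries, and every pair of groups overlapped. With MAT2Ai its log2 fold change was 0.00 ± 0.06 in WT and 0.06 ± 0.06 in SP (adjusted p = 0.994 and 0.986). Over the whole complex, only *Prmt5* had a 95% interval that left out 0 in the averaged MAT2Ai contrast, before adjustment over genes.

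The ratio of *Prmt5* to *Wdr77*, both as RPKM, the CPM per kilobase of exons, was 1.83 ± 0.137 in WT placebo, 1.93 ± 0.107 in WT MAT2Ai, 1.88 ± 0.172 in SP placebo and 2.07 ± 0.132 in SP MAT2Ai (SD, n = 5 each). The ratio of *Prmt5* to *Clns1a* was 1.41 ± 0.0521, 1.51 ± 0.128, 1.46 ± 0.11 and 1.55 ± 0.0928 in the same order. The means were higher under MAT2Ai in both genotypes, but the ranges of the libraries overlapped, and the ratios were not tested.

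*Prmt9*, the other type II enzyme, which methylates a splicing factor, lies on mm10 chromosome 8, 77549397 to 77581338, plus strand (ENSMUSG00000037134). Its means were 13.3 ± 1.14, 13.7 ± 1.51, 14.2 ± 0.640 and 14.4 ± 0.765 CPM (SD, n = 5 each) in WT placebo, WT MAT2Ai, SP placebo and SP MAT2Ai. The order of the means followed genotype, but the groups overlapped. SP against WT averaged over treatment gave a log2 fold change of 0.09 ± 0.05 (adjusted p = 0.380), and MAT2Ai averaged over genotype gave 0.03 ± 0.05 (adjusted p = 0.803). The SP value was 0.099 without SP placebo 1 and 2, and the MAT2Ai value was -0.0040 without WT MAT2Ai replicate 2.

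*Prmt7*, the type III enzyme, which leaves a single methyl group on arginine, lies on mm10 chromosome 8, 106210936 to 106252794, plus strand (ENSMUSG00000060098). Its libraries were at 17.7, 18.8, 17.6, 16.4 and 17.7 CPM in WT placebo and at 18.5, 28.7, 19.6, 19.4 and 16.1 CPM in WT MAT2Ai. In SP placebo they were at 18.0, 19.4, 20.2, 20.6 and 18.0 CPM, and in SP MAT2Ai at 19.3, 18.6, 19.4, 19.5 and 19.9 CPM. WT MAT2Ai replicate 2 was far above every other library, of which the next highest stood at 20.6 CPM, and WT MAT2Ai replicate 5 was the lowest of all 20. The log2 fold change of *Prmt7* in WT MAT2Ai against WT placebo was 0.22 ± 0.10 (unadjusted p = 0.0507, adjusted p = 0.319), the largest of any member in any comparison. It was 0.06 without WT MAT2Ai replicate 2, and -0.031 without replicates 2, 3 and 4.

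In SP mice the same contrast gave 0.01 ± 0.10 for *Prmt7* (adjusted p = 0.999), and the interaction of genotype and treatment was -0.21 ± 0.15 (adjusted p = 0.854). Without SP placebo 1 and 2 these were -0.012 and -0.23, and without WT MAT2Ai replicate 2 the interaction was -0.052. The SP effect averaged over treatment was 0.02 ± 0.07 (adjusted p = 0.909), and 0.14 (adjusted p = 0.111) without WT MAT2Ai 2, 3 and 4. No difference between the genotypes in the response of *Prmt7* was thus shown, and the interaction called 0 genes of 16152 (0%), with 903 (5.59%) at an unadjusted p under 0.05. The library that decides these values is also the one with 2276 CPM of injured tubule markers. Whether the tubule state of that kidney bears on its *Prmt7* level was not tested.

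**Figure D2:**
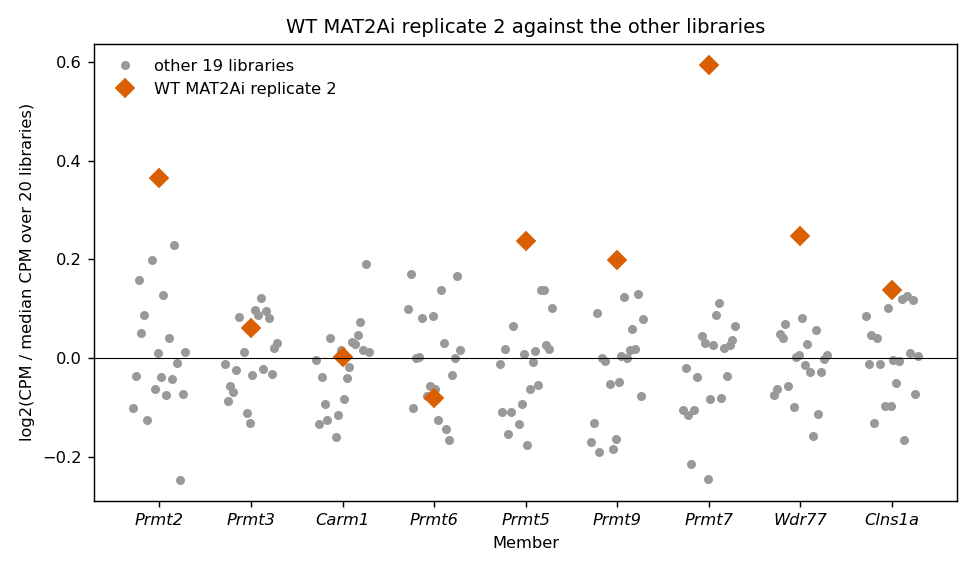
The log2 of each library's CPM over the median of the 20 libraries (y axis) for the 9 measured members, with WT MAT2Ai replicate 2 as a diamond and the other 19 libraries as points. The diamond is the highest value for 6 members and lies farthest from the others for *Prmt7*, at 28.7 CPM against a next highest of 20.6 CPM.

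WT MAT2Ai replicate 2 was the highest of the 20 libraries for 6 of the 9 members, *Prmt2*, *Prmt5*, *Prmt9*, *Prmt7*, *Wdr77* and *Clns1a*. It was also the highest for 3648 of all 16152 genes (22.6%). For *Clns1a* the lead was small, 26.1 against 25.9 CPM in the next library, and for *Prmt3*, *Carm1* and *Prmt6* this library was inside the range of the others.

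*Carm1* is the type I enzyme also called PRMT4, a coactivator that methylates histone H3. Of the measured members it had the lowest unadjusted p between genotypes under MAT2Ai and averaged over treatment, but not under placebo. It lies on mm10 chromosome 9, 21546894 to 21592623, plus strand (ENSMUSG00000032185). The libraries were at 27.9, 25.5, 27.2, 26.2 and 25.6 CPM in WT placebo and at 28.8, 27.99, 25.0, 25.8 and 28.2 CPM in WT MAT2Ai. In SP placebo they were at 26.4, 27.2, 27.6, 28.6 and 28.5 CPM, and in SP MAT2Ai at 28.8, 29.4, 28.3, 31.9 and 28.2 CPM. SP MAT2Ai held the 31.9 CPM that was the highest of all, yet its lowest library was below the highest of WT MAT2Ai.

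Averaged over treatment, SP against WT gave a log2 fold change of 0.09 ± 0.04 for *Carm1* (unadjusted p = 0.0288, adjusted p = 0.199), or 6.16% with a 95% interval from 0.686% to 11.9%. It was 0.10 without SP placebo 1 and 2, 0.091 (adjusted p = 0.180) without WT MAT2Ai replicate 2, and 0.051 (adjusted p = 0.538) without WT MAT2Ai 2, 3 and 4. Under MAT2Ai it was 0.11 ± 0.05 (unadjusted p = 0.0461, adjusted p = 0.220), 0.12 without WT MAT2Ai replicate 2, and 0.04 without replicates 2, 3 and 4. Under placebo it was 0.06 ± 0.05, or 0.09 without the libraries labelled SP placebo 1 and 2. In the averaged SP contrast 1.33% of all tested genes were called and 19.6% had an unadjusted p under 0.05, against 0 and 1 of the 9 members. *Carm1* shares 1025 exon bases with *Yipf2* on the other strand, whose mean count was 1542.

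*Prmt3*, which methylates a protein of the small ribosomal subunit, lies on mm10 chromosome 7, 49778346 to 49858265, plus strand (ENSMUSG00000030505). It had means of 15.04 ± 0.325, 15.4 ± 1.05, 16.1 ± 0.805 and 16.0 ± 0.564 CPM (SD, n = 5 each) in WT placebo, WT MAT2Ai, SP placebo and SP MAT2Ai. The placebo groups overlapped, with SP placebo from 15.2 to 16.9 CPM and WT placebo from 14.7 to 15.4 CPM. Their log2 fold change was 0.10 ± 0.05 (unadjusted p = 0.0782, adjusted p = 1.0). Averaged over treatment the SP effect was 0.08 ± 0.04 (adjusted p = 0.275). Without SP placebo 1 and 2 these were 0.11 and 0.082.

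*Prmt6*, a nuclear type I enzyme that methylates histone H3, lies on mm10 chromosome 3, 110246109 to 110250998, minus strand (ENSMUSG00000049300). Its means lay between 12.1 ± 0.998 CPM in SP placebo and 12.6 ± 0.911 CPM in WT placebo (SD, n = 5 each). *Prmt6* was the only member with a negative value in WT MAT2Ai against WT placebo, -0.05 ± 0.07 (adjusted p = 0.800). That value was -0.032 without WT MAT2Ai replicate 2 and 0.042 without WT MAT2Ai 2, 3 and 4. *Prmt6* shares 984 exon bases with *C130013H08Rik* on the other strand, and the strand setting of the counting is not known here.

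*Prmt2*, a weakly active type I enzyme that can act as a coactivator, lies on mm10 chromosome 10, 76207222 to 76237865, minus strand (ENSMUSG00000020230). It was the member with the fewest counts, 322 to 543 per library, and ranged from 5.52 to 8.43 CPM, both ends being MAT2Ai libraries. Its largest difference in a comparison of 2 groups was -0.10 ± 0.10 in SP MAT2Ai against WT MAT2Ai (adjusted p = 0.595), and that was -0.02 without WT MAT2Ai replicate 2.

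**Figure D3:**
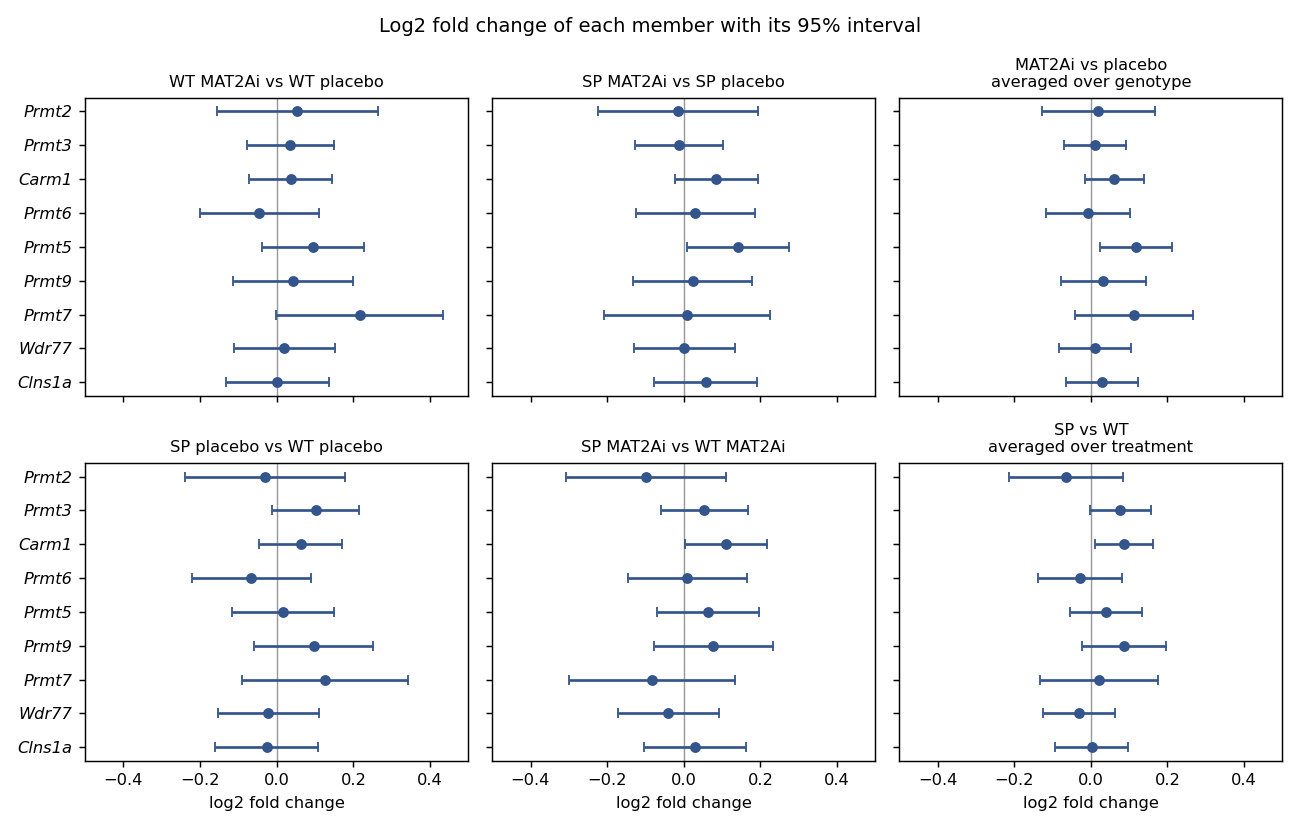
Log2 fold change (x axis) of the 9 measured members in 6 comparisons, as points with 95% intervals from the edgeR fit on 20 libraries, not adjusted over genes. The intervals lie close around 0, with *Prmt5* reaching from 0.02 to 0.21 in the averaged MAT2Ai contrast and *Prmt7* reaching up to 0.43 in WT MAT2Ai against WT placebo.

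Read across members, WT MAT2Ai against WT placebo called 0 of 9 at an adjusted p under 0.05, and 0% of all tested genes. An unadjusted p under 0.05 was reached by 0 members and by 2540 genes (15.7%). Of the members 8 had a positive value, with a median of 0.04 on the log2 scale, while 8502 of all 16152 genes were positive with a median of 0.01. Without WT MAT2Ai replicate 2, 4 of the 9 members were positive. SP MAT2Ai against SP placebo called 0 of 9 members against 0.0186% of genes, and 1 member, *Prmt5*, against 5.92% of genes had an unadjusted p under 0.05. In that comparison 7 members were positive, and their median was 0.02, while 8172 of all 16152 genes were positive with a median of 0.0019. Without SP placebo 1 and 2, 6 members were positive. Both comparisons use their own placebo group, and the averaged contrast combines them and called 0 of 9 members against 0.223% of genes.

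Between genotypes, SP placebo against WT placebo called 0 of 9 members and 0% of genes, with 0 members and 606 genes (3.75%) at an unadjusted p under 0.05. SP MAT2Ai against WT MAT2Ai called 0 of 9 members against 1.84% of genes, and 1 member, *Carm1*, against 21.8% of genes had an unadjusted p under 0.05. The median of the members was 0.02 in the first of these comparisons and 0.03 in the second, on the log2 scale, where the median of all genes was 0.00 and -0.02. DESeq2, limma-voom and the likelihood ratio test of edgeR also called 0 of 9 members in each of the 7 comparisons.

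The size of difference that the data leave room for is given by the intervals. In WT MAT2Ai against WT placebo the 95% intervals of the 9 members ran from -13.0%, the lower bound of *Prmt6*, to 35.1%, the upper bound of *Prmt7*. In SP MAT2Ai against SP placebo they ran from -14.4% for *Prmt2* to 20.9% for *Prmt5*. For the averaged MAT2Ai contrast the bounds were -8.51% and 20.2%, and for the averaged SP contrast -13.7% and 14.6%. The SE of members was 0.05 to 0.10 on the log2 scale in SP MAT2Ai against SP placebo, where the median SE over all genes was 0.13. A p that missed the threshold does not show that the groups were alike.

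Compared per length, with the union of exons as the length, *Prmt5* stood highest at 9.17 ± 0.697 RPKM (mean and SD over the 20 libraries). *Clns1a* followed at 6.19 ± 0.386, *Carm1* at 5.70 ± 0.334 and *Wdr77* at 4.77 ± 0.293 RPKM. The lower 5 were *Prmt7* at 3.13 ± 0.417, *Prmt6* at 2.93 ± 0.208, *Prmt3* at 2.61 ± 0.136, *Prmt9* at 2.44 ± 0.190 and *Prmt2* at 1.98 ± 0.198 RPKM. *Prmt5* was above *Clns1a*, *Carm1* above *Wdr77*, *Wdr77* above *Prmt7* and *Prmt9* above *Prmt2* in all 20 libraries. The other neighbours did not differ in every library, since *Clns1a* was above *Carm1* in 17, *Prmt7* above *Prmt6* in 13, *Prmt6* above *Prmt3* in 18 and *Prmt3* above *Prmt9* in 17. With the longest transcript as the length, *Wdr77* and *Prmt7* exchanged ranks, as did *Prmt6* and *Prmt3*.

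Among the 7 measured methyltransferases *Prmt5* made up 32.5% of the summed RPKM in WT placebo, 33.0% in WT MAT2Ai, 31.9% in SP placebo and 33.6% in SP MAT2Ai, and 31.2% to 34.6% in single libraries. The 4 measured type I enzymes summed to 13.0 ± 0.186, 13.1 ± 0.556, 13.2 ± 0.416 and 13.6 ± 0.513 RPKM (SD, n = 5 each) in the same order. *Prmt1* is missing from these sums.

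**Figure D4:**
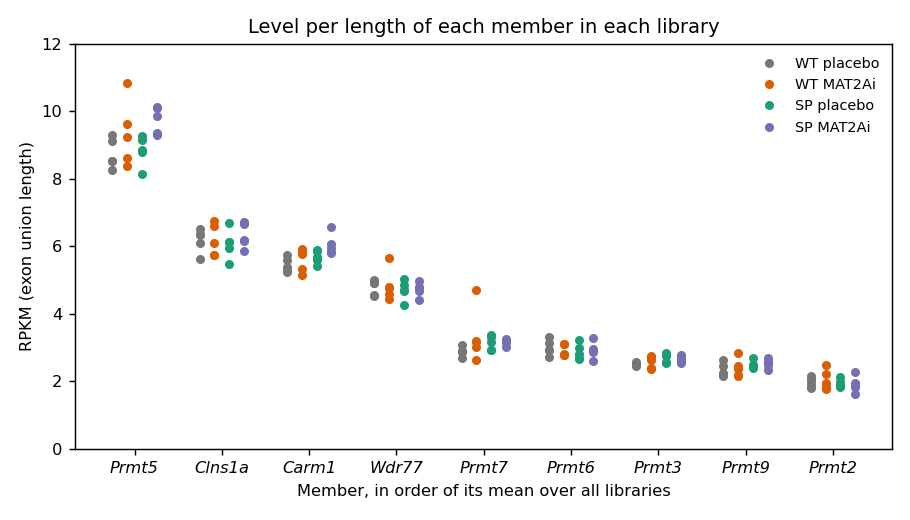
RPKM by exon union length (y axis, from 0) of the 9 measured members in each of the 20 libraries, coloured by group, with members in order of their mean. *Prmt5*, at a mean of 9.17 RPKM, lies above every other member in all libraries, and *Prmt7*, *Prmt6*, *Prmt3* and *Prmt9* overlap.

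How the members varied together within groups was described by correlating their log2 CPM, less the group mean, over the 20 libraries. Of the 36 pairs 26 were positive, with a median Pearson r of 0.38, or 0.19 over the 17 libraries without WT MAT2Ai 2, 3 and 4. The highest was 0.64 for *Prmt5* and *Prmt9*, and the lowest was -0.59 for *Prmt2* and *Prmt6*. Over the 17 libraries these were 0.44 and -0.64, and the highest was 0.62 for *Prmt3* and *Prmt5*, which gave 0.58 over all 20. *Prmt5* and its partner *Wdr77* gave 0.36, which was -0.29 without those 3 libraries, while *Prmt5* and *Clns1a* gave 0.47, or 0.42 without them. The points share their library, its depth and its cell makeup.

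Among 8973 genes of higher expression, the 3 whose within-group pattern was most like that of *Prmt5* were *Txnrd1*, *Prr13* and *Pgd*. *Txnrd1*, the gene of cytosolic thioredoxin reductase, had a Pearson r of 0.89 and a Spearman rho of 0.87 over the 20 libraries, and an r of 0.81 without WT MAT2Ai 2, 3 and 4. *Prr13* and *Pgd*, the latter an enzyme of the pentose phosphate pathway, both had an r of 0.84 and of 0.64 without those libraries. *Prmt9* was the member closest to *Prmt5* in this order, at rank 261, followed by *Prmt3* at 506, *Prmt7* at 526 and *Carm1* at 643. The partners came later, *Clns1a* at rank 1119 and *Wdr77* at rank 1823, and *Prmt6* came last at rank 5302. *Prmt2* was not among the genes searched.

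The other genes around arginine methylation were read from 5 lists, of which 34 of 36 genes were tested. *Prmt8* and *Padi4* were below the filter. In the 7 comparisons 1 value passed the test, *Ddah1* in SP MAT2Ai against WT MAT2Ai, where 1.84% of all genes were called. DDAH1 breaks down free asymmetric dimethylarginine, which is released when methylated proteins are degraded. *Ddah1* was at 384, 255, 330, 352 and 374 CPM in WT MAT2Ai and at 450, 408, 440, 410 and 440 CPM in SP MAT2Ai. Every SP library was above every WT library, as was the case, in either direction, for 3.4% of genes.

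The log2 fold change of *Ddah1* between these groups was 0.34 ± 0.09 (adjusted p = 0.0483, edgeR quasi-likelihood test). Without WT MAT2Ai replicate 2, the lowest library, it was 0.26 (adjusted p = 0.0522), and it was 0.18 (adjusted p = 0.292) without WT MAT2Ai 2, 3 and 4. Leaving out WT MAT2Ai 3 or SP MAT2Ai 1, 2, 3 or 5 also took the adjusted p to between 0.0731 and 0.126. The summed proximal tubule markers, 6696 CPM in that library against 8559 CPM or more in the others, were lowest where *Ddah1* was lowest. Between the same groups 1 of 7 proximal tubule markers was called higher in SP MAT2Ai (list median 0.20 on the log2 scale), and 3 of 6 macrophage markers (median -0.91) and 2 of 6 injured tubule markers (median -2.26) were called lower. All 5 endothelial markers were negative (median -0.66), none of them called. The part of these markers in the difference was not tested. In the placebo groups *Ddah1* was at 346 to 432 CPM in WT and at 377 to 419 CPM in SP.

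Of the 5 tested genes of other methyltransferases and cofactors, the one with the lowest p for the averaged MAT2Ai contrast was *Btg2*, whose product binds PRMT1, with a log2 fold change of 1.23 ± 0.32 (adjusted p = 0.131). *Btg2* was at 107 CPM in WT MAT2Ai replicate 2 and at 9.40 to 32.3 CPM in the other libraries. In SP it ran from 9.68 to 11.7 CPM with placebo and from 12.3 to 32.3 CPM with MAT2Ai. These SP groups did not overlap, as was the case, in either direction, for 1.58% of genes. In WT it ran from 9.40 to 16.0 CPM with placebo, and its median with MAT2Ai was 16.6 CPM. For the averaged SP contrast it was *Ndufaf7*, a mitochondrial arginine methyltransferase, at 0.09 ± 0.04 (adjusted p = 0.210). None of the 5 was called in any comparison.

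In the supply of SAM and removal of its by-products none of 6 genes was called. *Mat2b*, the regulatory subunit of the SAM synthase, had the lowest p with MAT2Ai, at -0.12 ± 0.05 (adjusted p = 0.292). Its mean was 81.1 CPM in WT placebo and 71.8 CPM in WT MAT2Ai, where the lowest library was at 55.6 CPM and the median at 73.1 CPM. In SP the means were 83.0 CPM with placebo and 79.1 CPM with MAT2Ai. For *Ahcyl1*, related to the hydrolase of S-adenosylhomocysteine, the averaged SP effect was 0.08 ± 0.04 (adjusted p = 0.301). The *Ahcyl1* means of WT and SP were 211 and 214 CPM under placebo, and 196 and 217 CPM under MAT2Ai. *Mat2a*, the enzyme that the inhibitor targets, was added after its values were seen and stood at 0.23 ± 0.10 in the averaged MAT2Ai contrast (adjusted p = 0.301). The *Mat2a* means of placebo and MAT2Ai were 358 and 463 CPM in WT, and 363 and 387 CPM in SP.

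Readers and removers of methylarginine gave 0 calls among 6 tested genes. *Snd1*, a Tudor domain protein, had the lowest p with MAT2Ai at 0.05 ± 0.05 (adjusted p = 0.615), and *Padi2*, which converts arginine to citrulline, had the lowest for SP at -0.45 ± 0.20 (adjusted p = 0.215). The 14 substrates in splicing and RNA binding gave 0 calls as well.

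*Agxt2*, which can degrade methylarginine in mitochondria, had the lowest p of its list of 3 with MAT2Ai, at -0.19 ± 0.08 (adjusted p = 0.308). For the averaged SP contrast it was *Ddah1*, at 0.17 ± 0.06 (adjusted p = 0.136). Averaged over genotype, 4 of the 14 substrates, 2 of the 5 methyltransferases and cofactors, 2 of the 6 supply genes, 0 of the 6 readers and removers and 1 of the 3 degradation genes had an unadjusted p under 0.05 with MAT2Ai, where 14.7% of all genes did.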

How the data were processed

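Kidney RNA of 20 libraries was analysed, 5 per group as named by the labels. Strand-specific libraries of poly(A) RNA were sequenced on a NovaSeq, reads were trimmed and then mapped to mm10 by STAR, and the authors deposited unscaled whole-number counts from htseq-count, by gene of Ensembl release 78. The strand setting is not given in the sources used here. The labels also mention single nuclei, but each table holds 1 bulk library. Symbols and positions came from GENCODE M21, which matched 42546 of 43430 gene IDs and left 884 unmatched. Lines for reads outside genes (3.87% to 5.49%) or ambiguous between genes (0.702% to 0.794%) stayed out of library sizes and tests. Multiply mapped reads, 48.3 to 63.6 alignments per 100 gene counts, were not counted in genes.

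Genes were filtered with filterByExpr and scaled by TMM, leaving 16152. The edgeR 4.0.16 quasi-likelihood test (R 4.3.3) was fitted on all 20 libraries with 1 coefficient per group, with Benjamini-Hochberg adjustment across the 16152 genes and a threshold of 0.05. The SE is the log2 fold change divided by the square root of F, and 95% intervals use the t distribution of the fit. CPM used TMM-scaled library sizes. Alternatives used DESeq2 1.42.0 and limma 3.58.1, among others. The scripts were tested on simulated data.

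The members, the other lists and the comparisons were chosen with earlier results of these data known. Every member is named, as is, from each other list, any gene called and the gene with the lowest p in the averaged MAT2Ai and averaged SP contrasts. Of the list of substrates, the gene that this rule takes is not reported here. The 3 genes most like *Prmt5* came from those whose log2 CPM averaged 3 or more, and the same rule could not be run for *Prmt1*.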

Additional observations from a re-analysis of the deposited data

Results flagged for a closer look

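In each group of 5 libraries the highest and lowest CPM of every member were set against the others, a library being listed here when its gap to the nearest one exceeded 0.71 of the range of the group. Of 36 such groups 2 were listed, where chance alone lists about 1 in 20. *Prmt7* in WT MAT2Ai replicate 2 was at 28.7 CPM, with the other 4 libraries at 16.1 to 19.6 CPM, a gap of 0.719 of the range. *Wdr77* in the same library was at 27.4 CPM, with the others at 21.5 to 23.2 CPM, also a gap of 0.719 of the range.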

How the results depend on the processing

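Under 31 alternatives, 20 that leave out 1 library each and 11 others, the 9 measured members gave 1530 values. None was called, the lowest adjusted p was 0.111, and the largest size was 0.29 on the log2 scale. The sign changed in 123 of them, and 36 of the 63 main values changed sign under at least 1 alternative. Without WT MAT2Ai replicates 2, 3 and 4 *Prmt7* turned from 0.22 to -0.031 in WT MAT2Ai against WT placebo, from 0.11 to -0.012 in the averaged MAT2Ai contrast and from -0.21 to 0.036 in the interaction. The cause was not tested.

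Fits with the replicate number as a replicate block called 0 members. Same-numbered libraries did not deviate together (mean correlation -0.0158 over 30 pairs, 4 over 0.1), and 6 of 20 libraries correlated best with their own number.

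*Ddah1* also missed the threshold with no filter on low counts (adjusted p = 0.0549), without mitochondrial genes (0.0506), with only the groups compared (0.232) and with the replicate block (0.0566). Its adjusted p over all alternatives ran from 0.00804 to 0.292.

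Counts over all genes moved more. The main test, DESeq2, the likelihood ratio test and limma-voom called, in that order, 0, 215, 178 and 2 genes in WT MAT2Ai against WT placebo, 3, 27, 20 and 17 in SP MAT2Ai against SP placebo, and 0, 7, 7 and 4 between the placebo groups. They called 298, 1203, 945 and 397 in SP MAT2Ai against WT MAT2Ai, 36, 192, 155 and 70 in the averaged MAT2Ai contrast, 215, 894, 677 and 1341 in the averaged SP contrast, and 0, 1, 1 and 0 in the interaction. With only the groups compared, SP MAT2Ai against WT MAT2Ai called 2 genes and SP MAT2Ai against SP placebo 10, and the replicate block gave 88 and 114 in SP MAT2Ai against WT MAT2Ai and the averaged SP contrast. Without WT MAT2Ai 2, 3 and 4 the averaged MAT2Ai and SP contrasts called 88 and 461, and the WT treatment comparison 63. Without SP placebo 1 and 2 the averaged MAT2Ai contrast called 4. Leaving out single libraries gave 0 to 774 genes in SP MAT2Ai against WT MAT2Ai (0 without SP MAT2Ai 3 or 5, 1 without SP MAT2Ai 2, 38 without SP MAT2Ai 1 and 774 without WT MAT2Ai 4), 20 to 574 in the averaged SP contrast (20 without SP placebo 4), 20 to 77 in the averaged MAT2Ai contrast, 0 to 27 in WT MAT2Ai against WT placebo and 0 to 7 in SP MAT2Ai against SP placebo (0 without any 1 SP placebo library or SP MAT2Ai 2).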
